A study of Mus musculus with 10 samples.

Results

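The interleukin-1 (IL-1) family was examined in 10 CT26 tumors resected before the residual tumor received a hydrogel loaded with poly(I:C). The 10 genes were taken by name from the 36009 rows of the gene table. They are the ligands Il1a, Il1b, Il18 and Il33, the receptor chains Il1r1, Il1rap and Il1rl1, and the inhibitors Il1rn, Il1r2 and Il18bp. Each name matched 1 row, and all 10 passed the filter on low counts. CT26 is a mouse colorectal carcinoma line, grown here under the skin of wild-type female BALB/c mice. The agent, poly(I:C), mimics viral double-stranded RNA. All tumors were untreated when sampled, and the groups are defined by what the residual tumor did later. The 6 responders regressed completely and the 4 non-responders grew without delay. Age is not in the labels, and every tumor derives from a single cell line, so the groups model differences between implanted tumors and not between cancers.

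IL-1 alpha and IL-1 beta bind the receptor IL1R1, which then recruits the shared chain IL1RAP and signals through MyD88 to NF-kB. IL-1 beta and IL-18 are made as inactive precursors that inflammasome-activated caspase-1 cleaves, whereas IL-33 is a nuclear alarmin released from damaged cells that binds ST2, the product of Il1rl1. The family is held in check by the receptor antagonist encoded by Il1rn, by the decoy receptor IL1R2, by a soluble form of ST2 and by IL-18 binding protein. In tumors, IL-1 beta is known mainly as a myeloid cytokine, and IL-18 is known for driving interferon gamma in T and NK cells.

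Libraries held between 23374649 and 38042544 estimated counts, and the members had between 147 counts (Il1a in non-responder 1) and 23385 counts (Il1rl1 in responder 1) per tumor. Expression is given as CPM, the count scaled to a common normalized library size. Non-responders 1 to 3 had the 3 smallest libraries, and non-responder 4 had a library larger than those of 4 responders. The tissue differed in leukocyte RNA. Ptprc, which encodes the pan-leukocyte antigen CD45, was at 326.2 to 499.3 CPM in responders and 181.1 to 307.4 CPM in non-responders. The summed CPM of 10 macrophage markers was 3031 to 4489 against 2131 to 2864, with 6 of the 10 called higher in responders. Skeletal muscle (607.2 to 1736 against 460.5 to 633.4 CPM) and adipocyte markers (78.7 to 174.8 against 22.7 to 53.4 CPM) also moved with response, with 3 of 9 and 2 of 8 genes called higher. The 10 neutrophil markers summed to 247.7 to 312.2 CPM in responders and 309.9 to 423.8 CPM in non-responders. In every tumor the largest part was Mmp9, which other cells also express and which was called lower (124.1 to 347.9 CPM, log2 fold change -0.68, edgeR adjusted p = 0.0443). S100a8, S100a9, Csf3r and Cxcr2 were present in every tumor (lowest 2.96 CPM), whereas Ly6g, Ngp and Camp were at or below 0.406 CPM. Of 11 colon epithelium markers, 7 were below 1 CPM in all tumors (Epcam, Krt8, Krt18, Krt19, Cdx1, Vil1 and Muc2). Krt20 was at 12.7 to 75.3 CPM, Cdh1 at 2.63 to 7.03 CPM, Lgals4 at 4.54 to 6.32 CPM and Cdx2 at 0.364 to 1.62 CPM, and the list summed to 23.3 to 48.9 CPM in responders and 45.5 to 90.4 CPM in non-responders. In bulk tissue, fewer cells of a type and less RNA per cell cannot be told apart.

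The comparison asked which IL-1 family genes, measured before treatment, differed between tumors that later responded and those that did not. The receptor gene Il1r1 was the only member to pass, with all responders below all non-responders (0.788-fold). Il18bp had all responders above all non-responders, at 1.91-fold, but missed the threshold. Il1rap missed it too, with 5 of 6 responders below the lowest non-responder. The IL-1 ligands and Il1rn overlapped between the groups. In counts, 0 members were called higher and 1 lower, where 8.06% of all genes tested were called in either direction and 3.35% as lower (edgeR quasi-likelihood test, adjusted p under 0.05 over 16041 genes). At an unadjusted p under 0.05, 3 members passed (Il1r1, Il1rap and Il18bp), against 29.1% of all genes, and 5 of the 10 estimates were above 0, against 48.2%. The members' shares were thus near those of all genes. The median log2 fold change of the members was -0.04, and that of all genes tested was -0.01.

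**Figure D1:**
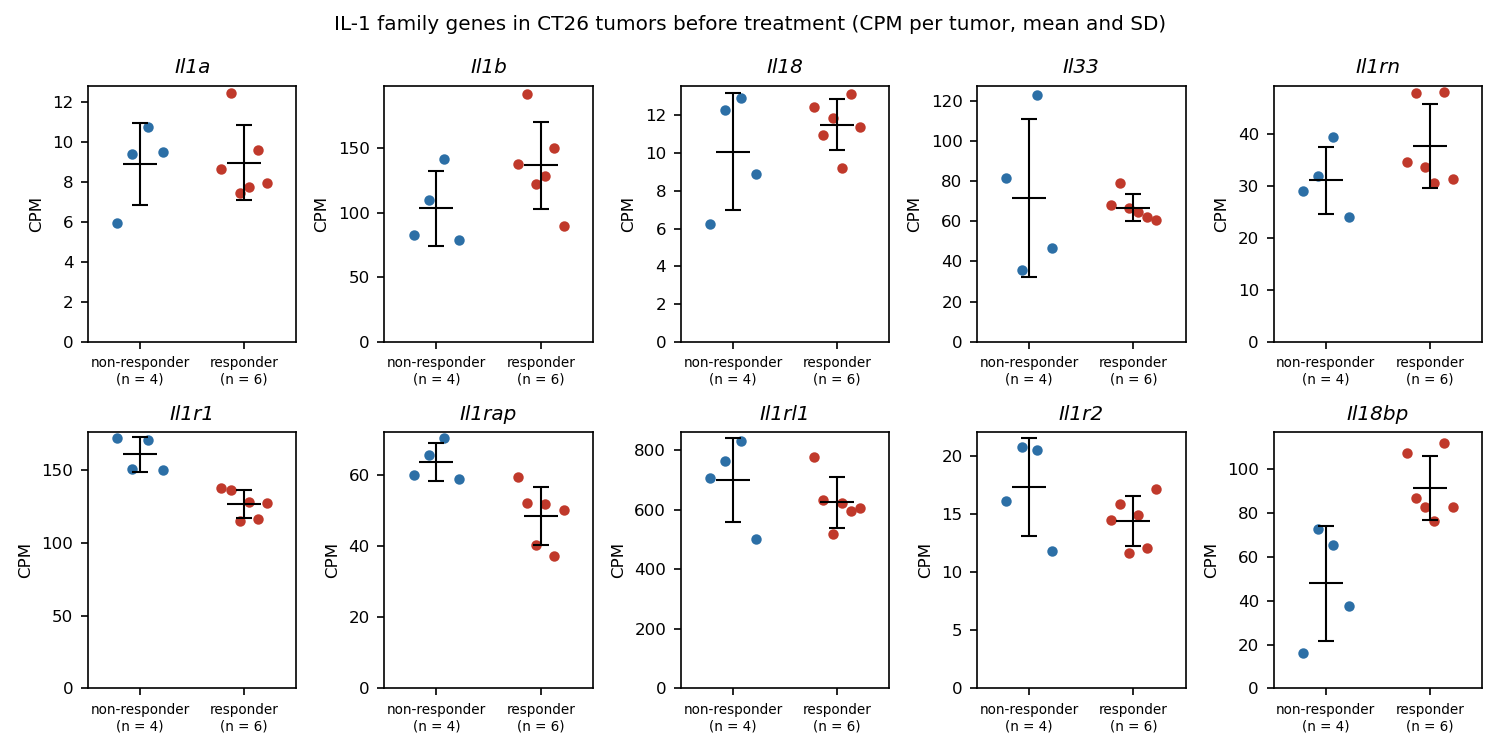
CPM of the 10 IL-1 family genes in each tumor (points), with non-responders (n = 4) on the left and responders (n = 6) on the right of each panel. The horizontal bar is the group mean and the whiskers are 1 SD. Il1r1 and Il18bp are the panels in which the groups do not overlap.

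**Figure D2:**
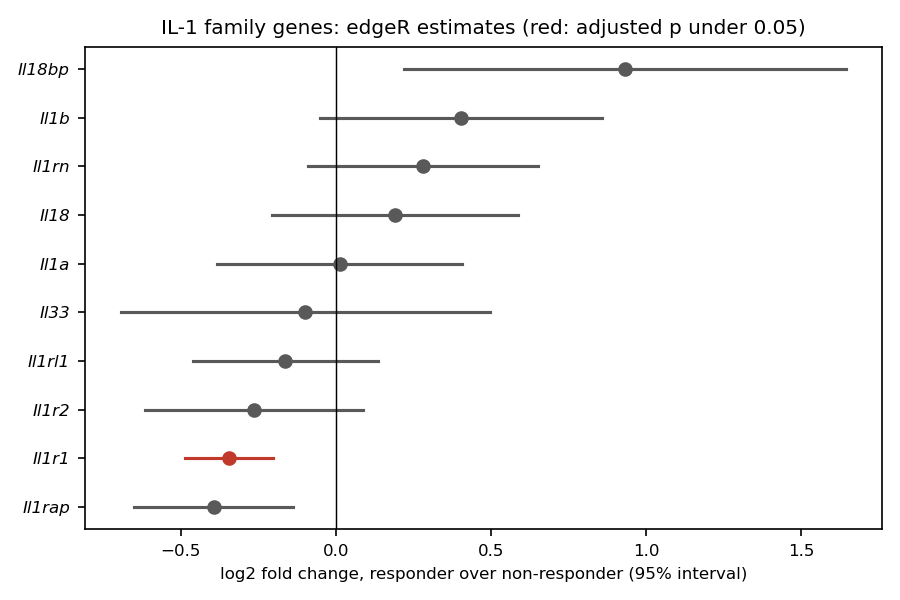
Log2 fold change of responders over non-responders for each gene with its 95% interval from the edgeR fit, ordered by estimate. Only the interval of Il1r1, at -0.34, is drawn in red for an adjusted p under 0.05, and the widest intervals belong to Il18bp and Il33.

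Among the receptors, Il1r1 (ENSMUSG00000026072, chromosome 1, 40225080 to 40317257, plus strand, GRCm38) encodes the signaling receptor of IL-1 alpha and IL-1 beta. Non-responders 1 to 4 had 171.7, 150.7, 170.8 and 150.2 CPM of Il1r1, and responders had 114.9 to 137.3 CPM with a median of 127.6 CPM. The lowest non-responder was therefore above the highest responder, as was the case (groups apart, lower in responders) for 4.55% of all genes tested. Mean levels were 126.7 ± 9.48 CPM (SD, n = 6) and 160.9 ± 12.0 CPM (SD, n = 4), which is -0.34 on the log2 scale (SE 0.07, 95% interval -0.49 to -0.20, edgeR adjusted p = 0.02445). The call was kept under 6 other processing settings (highest edgeR, DESeq2 or limma adjusted p = 0.0269). It was lost, with log2 fold changes of -0.38 to -0.31 in the edgeR fits, when non-responder 1, 3 or 4 or responder 3 was left out (edgeR adjusted p = 0.0607, 0.0507, 0.0584 and 0.0598). Ptprc and the summed macrophage markers moved the other way between the groups, and their part in the Il1r1 difference was not tested.

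Upstream sequence is shown for Il1r1, the member that passed, and for Il1rl1, the member with the highest level, which lies further along chromosome 1. Each is the 250 bases before the first RefSeq start site on GRCm38.p6, plus strand, at chr1:40224830-40225079 and chr1:40429320-40429569, and neither overlaps an annotated exon. Capitals mark the C/EBP-type letters TTGCNNAA, read on either strand.
Il1r1: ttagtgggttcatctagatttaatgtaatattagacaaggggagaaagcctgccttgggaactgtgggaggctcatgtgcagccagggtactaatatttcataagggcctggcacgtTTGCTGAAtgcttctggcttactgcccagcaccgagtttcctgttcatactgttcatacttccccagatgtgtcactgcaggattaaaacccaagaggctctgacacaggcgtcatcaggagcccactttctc
Il1rl1: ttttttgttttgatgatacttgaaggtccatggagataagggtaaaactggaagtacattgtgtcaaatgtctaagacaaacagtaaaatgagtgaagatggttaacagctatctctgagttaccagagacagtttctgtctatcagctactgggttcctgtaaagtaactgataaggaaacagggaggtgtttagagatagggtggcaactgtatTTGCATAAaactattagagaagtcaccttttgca
All motifs were read on both strands and may overlap. The match lay 133 bases before the first start site of Il1r1 and 34 bases before that of Il1rl1. The windows before the second start site of each gene, from chr1:40266336 and chr1:40439379, did not hold these letters. Among all 32851 upstream windows of this length, 9.56% held these letters, as did 4 of the 15 windows of the members. The NF-kB-type letters, GGG and CC with 5 bases of any kind between, were in 45.8% of all windows and 4 of 15, the AP-1-type TGANTCA in 6.75% and 2 of 15, the GAS-type TTCNNNGAA in 7.02% and 1 of 15, and the IRF-type, GAAA and GAAA with 2 bases between, in 2.98% and 0 of 15. The NF-kB-type windows were of Il1r1 (its second start site), Il1rn and Il1rap. These matches are descriptions of letters and not of factor binding.

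Il1rap (ENSMUSG00000022514, chromosome 16, 26581704 to 26730117, plus strand) encodes the accessory chain that the IL-1 and IL-33 receptors share. Its levels were 59.8, 65.6, 70.2 and 58.9 CPM in non-responders 1 to 4 and 37.2 to 59.3 CPM in responders, with a median of 50.9 CPM. Responder 1 alone reached into the range of non-responders. On the log2 scale the fold change was -0.39 (SE 0.12, 95% interval -0.65 to -0.14, edgeR adjusted p = 0.0594). It passed in 1 of 6 other settings, DESeq2 (adjusted p = 0.0174), and in 1 of 10 fits without a tumor. That fit left out responder 1, the tumor in the overlap (log2 fold change -0.46, edgeR adjusted p = 0.0486). The highest edgeR adjusted p of these fits was 0.129, without non-responder 3 (log2 fold change -0.34). An antisense gene shares part of an exon with Il1rap, and since the strand setting is not given, reads from there cannot be assigned. The same limit holds for Il1a and Il1b, which share 222 and 25 exon bases with genes on the opposite strand.

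Il1rl1 (ENSMUSG00000026069, chromosome 1, 40429570 to 40465415, plus strand) encodes ST2, the IL-33 receptor, in membrane and soluble forms that the gene-level counts do not separate. Non-responders 1 to 4 were at 706.7, 764.3, 829.9 and 501.1 CPM, and responders ranged from 518.0 to 778.5 CPM around a median of 613.1 CPM. The groups overlapped, with the lowest tumor of all being non-responder 4. In the edgeR fit the log2 fold change was -0.16 (SE 0.14, 95% interval -0.46 to 0.13, edgeR adjusted p = 0.454). ST2 is known from mast cells and regulatory T cells. The mast cell marker Cpa3 was at 2.79 to 31.4 CPM and the regulatory T cell factor Foxp3 at 5.73 to 10.6 CPM. The summed mast cell list was 128.5 to 312.5 CPM in responders and 111.1 to 147.8 CPM in non-responders, while the estimate for Il1rl1 lay in the other direction. Which cells carried the Il1rl1 RNA was not tested.

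Among the ligands, Il1b (ENSMUSG00000027398, chromosome 2, 129364570 to 129371139, minus strand) encodes the secreted inflammatory cytokine IL-1 beta. It was at 83.2, 109.8, 142.0 and 79.2 CPM in non-responders 1 to 4 and at 89.8 to 192.4 CPM in responders, with a median of 133.2 CPM. Responders 2 and 5 lay above all non-responders, and responder 6 lay among the lower ones. Its log2 fold change was 0.40 (SE 0.21, 95% interval -0.05 to 0.86, edgeR adjusted p = 0.222).

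Il1a (ENSMUSG00000027399, chromosome 2, 129299610 to 129309972, minus strand) encodes IL-1 alpha, which is active without cleavage. Its values were 5.94, 9.41, 10.8 and 9.53 CPM in non-responders 1 to 4 and 7.46 to 12.5 CPM in responders (median 8.29 CPM). The groups overlapped, with the lowest value in non-responder 1 and the highest in responder 2. The estimated log2 fold change was 0.01 (SE 0.18, 95% interval -0.38 to 0.41, edgeR adjusted p = 0.973).

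Il18 (ENSMUSG00000039217, chromosome 9, 50554827 to 50581840, plus strand) was at 6.22, 12.3, 12.9 and 8.90 CPM in non-responders 1 to 4, against 9.21 to 13.1 CPM in responders (median 11.6 CPM). Non-responders 1 and 4 were the lowest tumors, and the other non-responders matched the responders. Responders over non-responders, the log2 fold change was 0.19 (SE 0.18, 95% interval -0.20 to 0.59, edgeR adjusted p = 0.518).

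Il33 (ENSMUSG00000024810, chromosome 19, 29925114 to 29960718, plus strand) encodes an alarmin known from stromal and barrier cells. It was at 81.4, 36.0, 122.8 and 46.5 CPM in non-responders 1 to 4 and at 60.5 to 79.0 CPM in responders (median 65.6 CPM). Responders thus sat in a narrow band inside the range of non-responders. The coefficient of variation was 9.87% in responders (n = 6) and 54.7% in non-responders (n = 4), and this difference in spread was not tested. On the log2 scale the fold change was -0.10 (SE 0.27, 95% interval -0.69 to 0.50, edgeR adjusted p = 0.846), and its sign turned in limma-voom (0.07) and without non-responder 3 (0.29). Skin keratinocytes are known to express Il33 and Il1a, and their 10 markers summed to 6.88 to 8.26 CPM in responders and 5.85 to 13.2 CPM in non-responders. Krt1, Krtdap, Lor, Flg and Ivl were at or below 0.224 CPM in all tumors, and Krt5 and Krt14 exceeded 1 CPM only in non-responder 2, at 3.10 and 2.17 CPM. Krt10 (2.69 to 3.82 CPM) and Sfn (2.56 to 3.70 CPM) were present in all tumors, and Trp63 was at 0.477 to 2.38 CPM (log2 fold change 1.24, edgeR adjusted p = 0.0605). The part of these cells in the Il33 and Il1a values was not tested.

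Among the inhibitors, Il18bp (ENSMUSG00000070427, chromosome 7, 102014885 to 102018690, minus strand) encodes a secreted protein that neutralizes IL-18 and is known as a target of interferon gamma. Non-responders 1 to 4 were at 15.95, 72.8, 65.6 and 37.6 CPM, and responders were at 76.3 to 112.1 CPM with a median of 85.0 CPM. All 6 responders exceeded all 4 non-responders, though responder 4 and non-responder 2 were separated by little. Groups stood apart in this direction for 5.84% of all genes tested. Means were 91.4 ± 14.7 CPM (SD, n = 6) and 48.0 ± 26.2 CPM (SD, n = 4), or 0.93 on the log2 scale (SE 0.32, 95% interval 0.22 to 1.64, edgeR adjusted p = 0.0888). Il18bp passed in 0 of 6 other settings and in 1 of 10 fits without a tumor. That fit left out non-responder 2, the non-responder nearest to the responders (log2 fold change 1.21, edgeR adjusted p = 0.0451). Its estimate fell to 0.65 without non-responder 1, the tumor with the least Ptprc (edgeR adjusted p = 0.103). Of these fits, the one without non-responder 4 gave the highest edgeR adjusted p, 0.193, at an estimate of 0.83. Summed NK and cytotoxic lymphocyte markers were also apart between groups, at 192.4 to 398.2 CPM in responders and 42.6 to 183.3 CPM in non-responders. Of these 9 markers, 2 were called higher, and their part in the Il18bp values was not tested. Numa1, on the opposite strand, shares part of an exon with Il18bp and had a log2 fold change of -0.05 (edgeR adjusted p = 0.578).

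The genes whose log2 CPM followed Il18bp most closely over the 10 tumors were Gvin2, Gbp10 and Gm12185, with Pearson's r of 0.996, 0.995 and 0.995. Within the 6 responders r was 0.930, 0.910 and 0.909. For Il1r1 they were Tnfrsf23, Prkacb and Tnfrsf26 (r = 0.970, 0.968 and 0.962 over 10 tumors, and 0.864, 0.785 and 0.840 within responders). These likenesses are the highest of all genes tested, were picked for being so, share library and depth with the member, and over 10 tumors include the difference between groups.

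Il1rn (ENSMUSG00000026981, chromosome 2, 24336853 to 24351494, plus strand) encodes the IL-1 receptor antagonist, which occupies IL1R1 without signaling. It was at 28.9, 31.9, 39.3 and 24.0 CPM in non-responders 1 to 4 and at 30.5 to 48.0 CPM in responders (median 34.1 CPM). Responders 2 and 5, which were also the highest for Il1b, were the only tumors above non-responder 3. In the edgeR fit the log2 fold change was 0.28 (SE 0.17, 95% interval -0.09 to 0.65, edgeR adjusted p = 0.295).

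Il1r2 (ENSMUSG00000026073, chromosome 1, 40074079 to 40125231, plus strand) encodes a decoy receptor that binds IL-1 and lacks a signaling domain. Its values were 16.1, 20.8, 20.6 and 11.9 CPM in non-responders 1 to 4 and 11.7 to 17.2 CPM in responders (median 14.7 CPM). Non-responders 2 and 3 were the highest tumors and the groups overlapped. Its log2 fold change was -0.26 (SE 0.16, 95% interval -0.62 to 0.09, edgeR adjusted p = 0.302).

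The balance between inhibitor and ligand was described as a difference of log2 CPM within each tumor, from which library size cancels. The lengths of the 2 genes remain in each value and cancel only between the groups, so the values are not ratios of transcript levels. Il18bp minus Il18 was 1.35, 2.56, 2.34 and 2.07 in non-responders 1 to 4 and 2.80 to 3.11 in responders, with all responders above all non-responders. Il18bp alone was already apart in this direction (log2 fold change 0.93, against 0.19 for Il18), so the difference is not a separate result. Group means of the difference were 2.98 ± 0.13 (SD, n = 6) and 2.08 ± 0.53 (SD, n = 4). By contrast, Il1rn minus Il1b overlapped, at -2.07 to -1.52 in responders and -1.85 to -1.52 in non-responders. Of the 6 responders, 4 lay below all non-responders and 1 above them. The means of -1.85 ± 0.22 (SD, n = 6) and -1.72 ± 0.14 (SD, n = 4) differed by less than the spread in responders. Il1rn minus Il1a (2.06 ± 0.15 against 1.80 ± 0.39, SD) and Il1r2 minus Il1r1 (-3.14 ± 0.15 against -3.24 ± 0.36, SD) overlapped between groups. No test was run on these differences, and the members were chosen with results known.

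**Figure D3:**
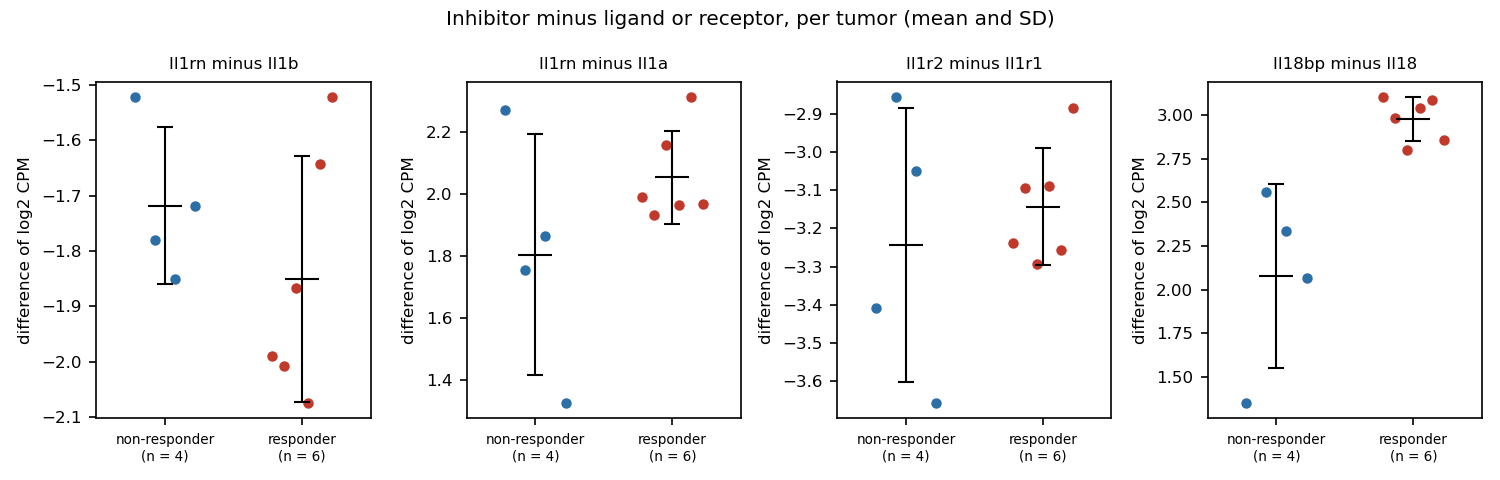
Difference of log2 CPM between an inhibitor and its ligand, or between the decoy and the signaling receptor, in each tumor (points) with the group mean and SD (non-responders n = 4, responders n = 6). Il18bp minus Il18 is the panel in which the groups are apart, with responders at 2.80 to 3.11.

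Levels were compared between members as CPM per kilobase of annotated exons. Il1rl1 was the highest, with a median of 91.0 (range 72.7 to 120.4 over 10 tumors), above 97.2% of the tested genes with a length. Il1b followed at 65.9 (41.5 to 100.9). Then came Il18bp at 26.3, Il33 at 22.7 and Il1r1 at 21.5, which overlapped in range. Il18 was at 11.3, Il1r2 at 8.08, Il1rn at 5.92, Il1rap at 4.88 and Il1a at 4.58. Of the 9 neighboring pairs in this order, the ranges of Il1b and Il18bp and of Il1r1 and Il18 did not overlap, and the other 7 pairs did. The level of Il1b exceeded that of Il1a in every tumor. With the median coding transcript length instead, chosen after seeing the data, Il1rl1, Il1b, Il1r1, Il1r2, Il1rap and Il1a kept their ranks.

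**Figure D4:**
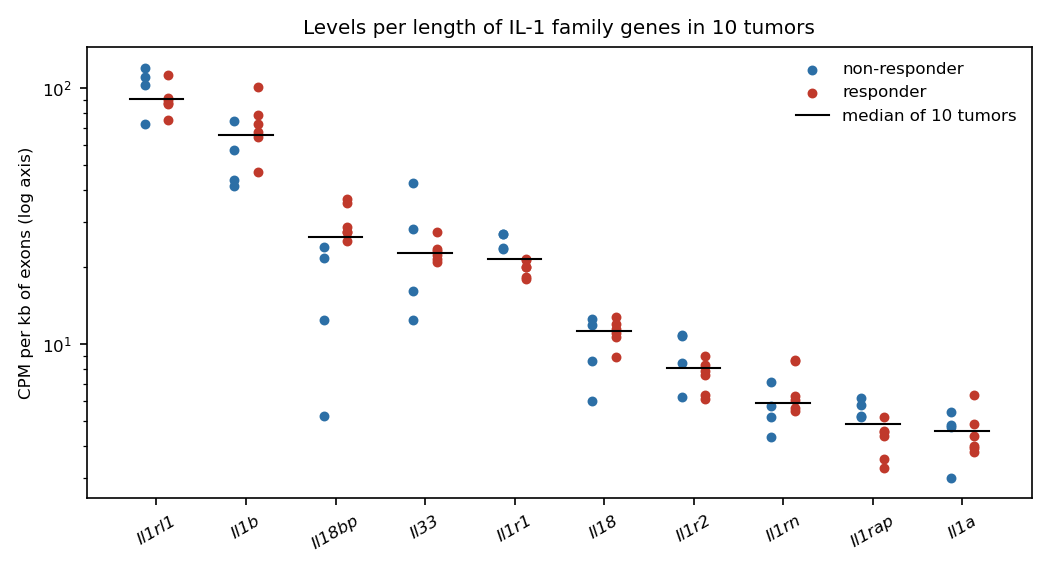
CPM per kilobase of annotated exons (log axis) of the 10 genes, ordered by the median of the 10 tumors (black line), with non-responders in blue and responders in red. Il1rl1 and Il1b, at medians of 91.0 and 65.9, lie above the other 8 genes.

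Members were also compared with each other across tumors. Of 45 pairs, Il1r1 with Il18bp was not pooled because the groups are apart on both genes, and 2 of the other 44 passed after adjustment. Il1b and Il1rn, the agonist and its antagonist, had Pearson's r = 0.885 (permutation p = 0.00085, adjusted p = 0.0187) and Spearman's rho = 0.915 (permutation p = 0.00046, adjusted p = 0.0101). Among the 6 responders alone, r = 0.790 had an exact permutation p of 0.0403 and rho = 0.771 one of 0.103, and without the 2 tumors farthest from the median of Il1b r was 0.752. Il1r1 and Il1rap, the chains of the IL-1 receptor complex, had r = 0.888 (permutation p = 0.00075, adjusted p = 0.0187) and rho = 0.939 (permutation p = 0.00014, adjusted p = 0.00616). The permutations did not keep tumors within their group, so all pooled values include any difference between groups. Here Il1r1 was apart between groups, and 5 of 6 responders lay below all non-responders on Il1rap. For the 6 responders, r = 0.940 had an exact permutation p of 0.00694 and rho = 0.943 one of 0.0167, and r was 0.939 without the 2 tumors farthest from the median of Il1r1. Il18 and Il18bp had r = 0.894 (permutation p = 0.00504, adjusted p = 0.0713) but rho = 0.588 (permutation p = 0.0799, adjusted p = 0.251). Without the 2 tumors farthest from the median of Il18 their r was 0.252, so the size of the pooled r depended on those tumors. Within the 6 responders, however, r = 0.830 had an exact permutation p of 0.0264 and rho = 0.8286 one of 0.0583. The 4 non-responders were too few for values of their own. The p-values within responders are not adjusted for the number of pairs, and the members were chosen with results known.

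**Figure D5:**
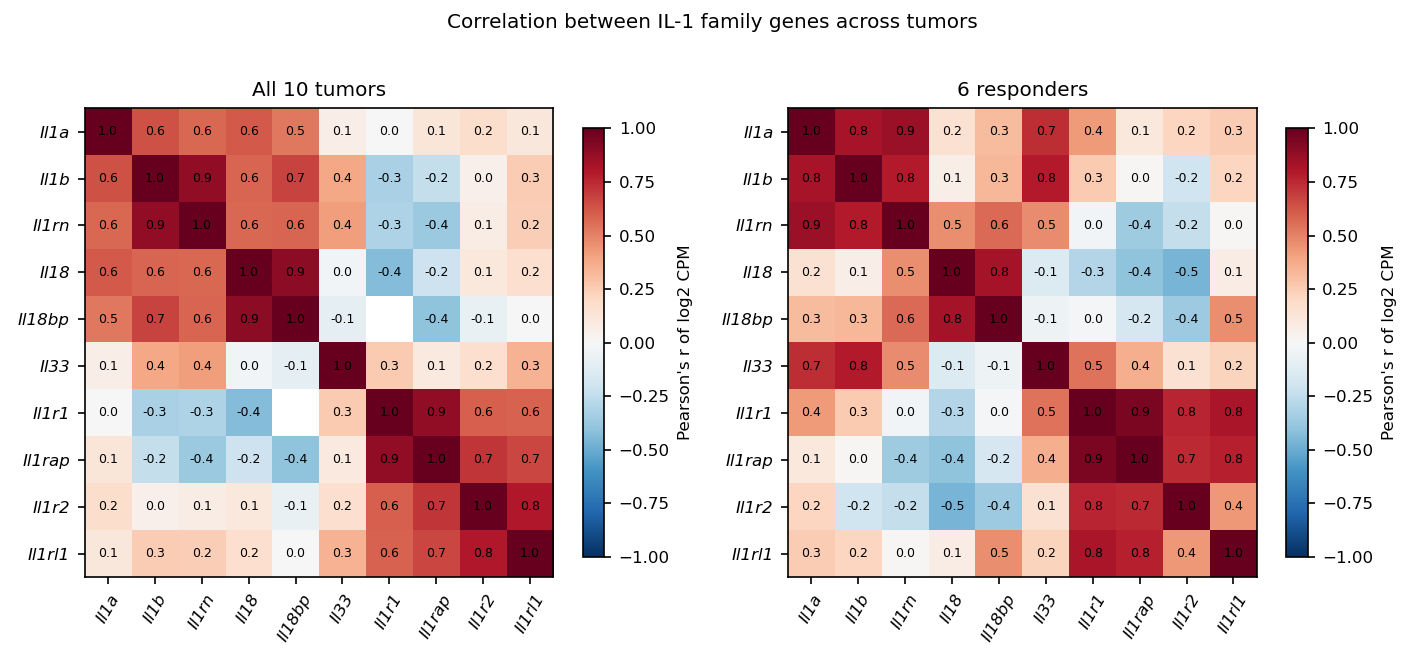
Pearson's r of log2 CPM between the 10 genes over all 10 tumors (left) and over the 6 responders (right), with blue below and red above 0. The cell of Il1r1 with Il18bp is blank on the left because the groups are apart on both genes. Il1b with Il1rn and Il1r1 with Il1rap are the pairs that passed over all tumors.

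Other genes of the pathway were read from lists of 67 genes, of which 54 could be tested. Of these, 8 were called higher and 3 lower in responders (edgeR adjusted p under 0.05), where 4.71% and 3.35% of all genes were. The median log2 fold change over the 54 genes was 0.12. The count was 0 when non-responder 1, non-responder 4 or responder 3 was left out, 1 without responder 2, 4 without responder 1 or responder 5 and 5 without non-responder 3, and it was 19 in DESeq2. Of the inflammasome and processing genes, 4 of 11 tested were called higher and 0 lower in responders. All 11 estimates were above 0, against 48.2% of all genes tested. Those called higher were Pycard, the inflammasome adaptor, and the sensors Nlrp1b, Aim2 and Nlrc4. Pycard was at 5.94, 9.52, 10.4 and 8.14 CPM in non-responders 1 to 4 and at 10.9 to 16.9 CPM in responders (log2 fold change 0.73 ± 0.15 SE, adjusted p = 0.02993 in edgeR). Aim2, a sensor of cytosolic DNA, was at 5.53 to 9.71 CPM against 10.1 to 15.5 CPM in responders (log2 fold change 0.72 ± 0.17 SE, adjusted p = 0.03449 in edgeR). Nlrp1b and Nlrc4 had log2 fold changes of 0.65 and 0.53 (edgeR adjusted p = 0.03296 and 0.04317). Of 2 further genes, named for their role after their values were seen, Nlrp3, the sensor best known for IL-1 beta processing, had 0.15 (95% interval -0.10 to 0.41, edgeR adjusted p = 0.407) and Casp1, the protease that cleaves IL-1 beta and IL-18, 0.41 (edgeR adjusted p = 0.162). Several of these genes are expressed by macrophages, whose markers were higher in responders as given above, and that part was not tested.

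Of 16 receptor-proximal signaling genes, 3 were called higher and 0 lower in responders. They were the kinases Irak4 and Irak2 and the inhibitory family member Irak3. Irak4 was at 18.4, 19.9, 19.3 and 21.4 CPM in non-responders 1 to 4 and at 24.3 to 27.7 CPM in responders (log2 fold change 0.36 ± 0.06 SE, adjusted p = 0.02185 in edgeR). Irak3 was at 3.29 to 4.90 CPM against 5.30 to 10.9 CPM (log2 fold change 0.98 ± 0.22 SE, adjusted p = 0.03296 in edgeR), and Irak2 at 12.3 to 19.5 CPM against 20.5 to 26.6 CPM (log2 fold change 0.55 ± 0.13 SE, adjusted p = 0.03716 in edgeR). The groups did not overlap for these 3 genes, as was so in this direction for 5.84% of all genes tested. Myd88, the adaptor of the receptors, had a log2 fold change of 0.26 (edgeR adjusted p = 0.0618).

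Of the other receptor family chains, Sigirr, an inhibitory member, was called lower in responders (log2 fold change -0.32 ± 0.08 SE, adjusted p = 0.036 in edgeR). Il18r1, the ligand-binding chain of the IL-18 receptor, was at 5.94 to 12.4 CPM in non-responders and 12.2 to 30.9 CPM in responders (log2 fold change 0.91 ± 0.27 SE, adjusted p = 0.0611 in edgeR). Of 17 IL-1 response genes tested, 0 were called higher and Ptges, a prostaglandin E synthase, was called lower (log2 fold change -0.23 ± 0.06 SE, adjusted p = 0.03895 in edgeR). Estimates were above 0 for 12 of the 17, against 48.2% of all genes tested, and their median was 0.22. Saa3, an acute phase gene, Icam1 and Mmp3 had log2 fold changes of 0.94, 0.56 and -0.40 (edgeR adjusted p = 0.05635, 0.05957 and 0.05989). Of 6 IL-18 and IL-33 response genes tested, Tbx21, the factor of type 1 lymphocytes, was called higher. Areg, which encodes the growth factor amphiregulin, was called lower. Tbx21 was at 0.89, 1.90, 1.91 and 1.60 CPM in non-responders 1 to 4 and at 2.05 to 8.56 CPM in responders (log2 fold change 1.57 ± 0.38 SE, adjusted p = 0.0372 in edgeR). Areg was at 9.57, 3.62, 9.15 and 5.19 CPM against 1.54 to 4.22 CPM (log2 fold change -1.38 ± 0.31 SE, adjusted p = 0.0327 in edgeR), with overlap through responder 4 and non-responder 2. Ifng had a log2 fold change of 1.33 (edgeR adjusted p = 0.102). Il36g was at 1.69 to 3.83 CPM (log2 fold change -0.07, edgeR adjusted p = 0.883), and Il36a, Il36b, Il36rn and Il1f10 had 0 counts in all 10 tumors.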

How the data were processed

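PolyA RNA of 10 resected CT26 tumors was sequenced as paired ends. The authors reviewed reads with FastQC, quantified transcripts against mm10 (GRCm38) with Kallisto and collapsed them to gene level with tximport. The deposited values are expected counts (estimated, 45.1% fractional) that are not scaled to depth. The annotation release, scaling option and strand setting are not given in the sources used here. Reads that fit several transcripts are shared among them in this approach.

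Groups were taken from the response label, and tumors were numbered in accession order, which pairs nothing. No batch is labeled. After rounding, counts were fitted with edgeR 4.0.16 under R 4.3.3 (filterByExpr with minimum count 10 and minimum total 15, TMM, quasi-likelihood test, two-sided). The 16041 genes tested shared 1 Benjamini-Hochberg adjustment at a threshold of 0.05, and the SE is the log2 fold change over the square root of F. For log2 CPM the prior count was 2. The edgeR, limma-voom and DESeq2 steps were tested on simulated data. Lengths and coordinates came from GENCODE M21, which matched 35912 of 36009 identifiers, and upstream windows from RefSeq (GRCm38.p6, all 10 members matched). Correlation p-values used 100000 permutations, or all 720 orders within responders.

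The members and lists were chosen with earlier results of these data known. The genes described are the 10 members, pathway genes that were called or had among the 4 smallest p of their list (of which some are given by count only), and the 3 genes most like a member, shown for Il18bp and Il1r1; Nlrp3 and Casp1 were added later. Alternatives were limma 3.58.1, DESeq2 1.42.0, RLE scaling, robust dispersion, no filter, the study's CPM filter, a prior count of 0.5 and leaving out each tumor.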

Additional observations from a re-analysis of the deposited data

How the results depend on the processing

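Of the 10 fold changes, 8 kept their direction under all 16 alternatives (6 settings and 10 fits without a tumor). The exceptions were Il1a, at -0.13 without non-responder 1, -0.10 without responder 2 and -0.01 without responder 5, and Il33, at 0.0745 in limma-voom and 0.29 without non-responder 3. Without single tumors Il1a ranged from -0.13 to 0.11 and Il33 from -0.32 to 0.29. The cause was not tested. DESeq2 called 2580 genes (1293 in the edgeR fit), 19 pathway genes (11 in edgeR) and 2 members lower (1 in edgeR). Leaving out single tumors gave 0 to 1897 genes called (0 without non-responder 4, where 4106 had an unadjusted edgeR p under 0.05), 0 to 14 pathway genes, 0 to 2 members lower and 0 to 1 higher. The difference of log2 CPM between groups ranged from 0.66 to 1.06 for Il18bp minus Il18 and from 0.0915 to 0.41 for Il1rn minus Il1a (lowest and highest without non-responders 4 and 1). Il1rn minus Il1b, at -0.13, ranged from -0.20 without responder 6 to -0.07 without non-responder 1. Il1r2 minus Il1r1, at 0.10, ranged from 0.23 without non-responder 2 to -0.04 without non-responder 4, so its sign rested on that tumor. With the median coding transcript length, Il33 ranked 3, Il18bp 4, Il1rn 6 and Il18 8 by level. A prior count of 0.5 moved none of the 4 differences by as much as 1 SD. No paired analysis was possible because the labels give no number that tumors of both groups share. Il1a and Il18 had the fewest counts of the members (from 147 and 154 in a tumor), and are the least precisely counted.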

Other observations

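A run of 6 genes of the IL-1 receptor family lies side by side on chromosome 1 (40074079 to 40551705, GRCm38, all on the plus strand), in the order Il1r2, Il1r1, Il1rl2, Il1rl1, Il18r1 and Il18rap. Their levels differed widely in these tumors. Per kilobase of exons, Il1rl1 had a median of 91.0 CPM, Il1r1 21.5, Il18rap 20.5, Il1r2 8.08, Il1rl2 6.96 and Il18r1 2.75 over 10 tumors. The accessory chain Il18rap, at 17.7 to 24.0 CPM per kilobase, was thus above the ligand-binding chain Il18r1, at 1.23 to 6.42, in every tumor, although both are needed for IL-18 signaling. Il18rap had a log2 fold change of 0.05 between groups (edgeR adjusted p = 0.777). Il1rl2, which encodes the IL-36 receptor, was at 37.6 to 51.6 CPM while 3 of the IL-36 ligand and antagonist genes, Il36a, Il36b and Il36rn, had 0 counts.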
